A study of Mus musculus with 8 samples.

Results

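Genes encoding 9 inhibitors of Wnt signalling were followed through the stromal, osteoblastic and chondrocytic cells of adult mouse long bones. They were Dkk1, Dkk2, Dkk3, Sost, Wif1, Kremen1, Notum, Ctnnbip1 and Sostdc1, taken by symbol, 9 of the 32285 genes of the count tables, and each symbol was found in all 8 tables. The cells came from femurs and tibiae of female mice of 7 or 13 weeks. Controls (Con) were Sox4fl/fl Sox11fl/fl Sox12fl/fl mice without Cre, and mutants (SOXCOsxCre) carried the same floxed alleles with OsxCre, so that all 8 mice had floxed SOXC genes. OsxCre drives the recombinase from the promoter of Sp7 (osterix), which is active in the osteoblast lineage, and doxycycline in the food kept it off before weaning. Each genotype and age had 2 mice and each mouse gave 1 library. Bones were scraped free of periosteum and flushed of marrow, the fragments were digested with Liberase and EDTA, and cells carrying haematopoietic surface proteins were removed with antibodies and magnetic beads. The labels name separate mice, and littermates were compared, but they do not say which mice were sisters.

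Wnt ligands bind Frizzled receptors and LRP co-receptors on the cell surface and thereby stabilise beta-catenin, which enters the nucleus and works with TCF/LEF factors. The inhibitors act at different steps: the Dickkopf proteins DKK1 and DKK2, sclerostin (Sost) and its relative Sostdc1 bind the LRP co-receptors, Kremen1 is a membrane receptor for DKK1 that removes LRP from the surface, WIF1 binds the ligands themselves, NOTUM is a secreted enzyme that strips the lipid that Wnt proteins need, and the protein of Ctnnbip1 blocks beta-catenin inside the cell. DKK3 is a divergent member of the Dickkopf family whose part in Wnt signalling is less clear. In bone, sclerostin and DKK1 are secreted by osteocytes and late osteoblasts and restrain bone formation.

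Libraries held 81894604 to 156090286 UMIs (unique molecular identifiers, each a counted transcript) over all barcodes. The first mouse of every group was sequenced more deeply than the second, with 127864255 or more UMIs against 89283370 or fewer, so depth moved with the replicate number and was balanced over genotype and age. After filtering, 59629 cells remained, 6410 to 8753 per mouse, and pairs of libraries shared at most 0.498% of their barcodes. Clustering without the Wnt genes gave 39 clusters, of which 21 were named from markers, 11 held few UMIs and 7 stayed unnamed. The named types that matter here are Sca1+ mesenchymal stromal cells (MSC-like, 492 cells), Lepr+ MSC-like cells (4073), Lepr+ osteoprogenitor-like (OP-like) cells (2322), preosteoblast-like (preOB-like) cells (2314), mature osteoblast-like (OB-like) cells (22615), osteocyte-like cells (1424), a small osteoblast group with interferon response genes (692), and hypertrophic (2481) and other (2074) growth plate chondrocyte-like (GPC-like) cells. UMIs were added up over the cells of each type in a mouse, and levels are CPM, counts relative to the library size scaled by TMM factors. Of the 3 targeted genes, Sox4 was called lower in mutants in 6 of the 9 types, for example 408 ± 34.6 against 168 ± 27.2 CPM in Lepr+ MSC-like cells (SD, n = 4 mice each) and 304 ± 52.0 against 90.3 ± 12.8 CPM in osteocyte-like cells. It was not called different in Sca1+ MSC-like cells, at 281 ± 123 against 133 ± 61.1 CPM (-1.12 on the log2 scale), nor in the chondrocyte types, where it was 29.5 ± 16.3 against 30.8 ± 26.3 CPM in hypertrophic GPC-like and 9.03 ± 3.05 against 6.46 ± 2.13 CPM in GPC-like cells. Sox12 was called lower in Lepr+ OP-like (-1.84), preOB-like (-2.46) and mature OB-like cells (-2.16), and Sox11 was at 2.60 CPM or below on average in every type.

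The inhibitors differed in the cell type where they were highest. Wif1 was highest in Lepr+ OP-like cells and spread to both neighbouring stages, Dkk1 and Sost were highest in osteocyte-like cells, Dkk3 and Kremen1 in Sca1+ MSC-like cells, Notum in GPC-like cells, and Ctnnbip1 was present in each of the 9 types and, among these, highest in Lepr+ MSC-like and OP-like cells. Dkk2 was near 0 in the control cells of all 9 types and was found in endothelial-like cells, and Sostdc1 had 7 UMIs or fewer in any of the 9 types. These orders are descriptions without a test, since the types are clusters of the same cells.

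**Figure D1:**
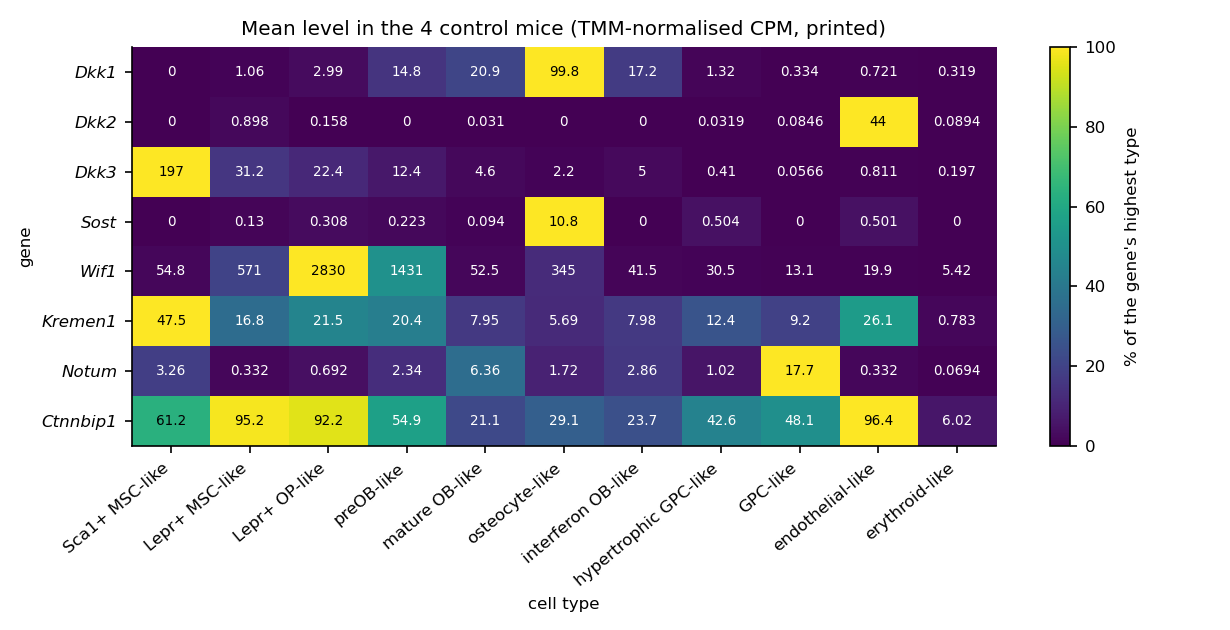
Mean level of 8 inhibitors (rows) in the 9 main cell types and in endothelial-like and erythroid-like cells (columns), over 4 control mice, printed in CPM, with the colour giving the percent of that gene's highest type. Most genes peak in 1 type, such as Wif1 at 2830 CPM in Lepr+ OP-like cells and Dkk1 at 99.8 CPM in osteocyte-like cells, and levels should be read along a row only.

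Wif1 encodes Wnt inhibitory factor 1, which holds Wnt ligands in the extracellular space (chr10:121033960-121100650, plus strand, GRCm38). In controls its level climbed from 571 ± 250 CPM in Lepr+ MSC-like cells to 2830 ± 317 in Lepr+ OP-like cells, then stood at 1431 ± 375 in preOB-like cells and 52.6 ± 14.6 in mature OB-like cells (SD, n = 4). Another Lepr+ MSC cluster, of 2172 cells with few UMIs, was left out of the Lepr+ MSC-like cells. Pooled over all mice it held 1080 CPM of Wif1, beside 517 in the cluster used and 1250 in the preOB-like cluster. Its part in these steps was not tested. The ranges of the control mice did not overlap between Lepr+ OP-like cells and the preOB-like stage, nor between that stage and Lepr+ MSC-like cells. It did not end there: osteocyte-like cells held 345 ± 117 CPM, 6.29 times the level of the next type in the order, and their range overlapped that of Lepr+ MSC-like cells. Chondrocyte-like cells were low, at 30.5 ± 17.5 CPM in the hypertrophic and 13.1 ± 4.16 CPM in the other type. Erythroid-like cells, which should lack the gene, held 5.42 ± 1.31 CPM, but they had the most UMIs a cell. Pooled over all mice, Wif1 was 7.52 CPM in granulocyte or monocyte-like and 11.3 CPM in lymphoid-like cells. It was 43.7 CPM in a megakaryocyte and 62.0 CPM in an erythroid cluster with few UMIs. Whether the chondrocyte-like levels lie above free RNA was not tested. With each cell thinned to 2000 UMIs, Wif1 was detected in 95.6% ± 1.63 of Lepr+ OP-like cells, 77.4% ± 8.73 of preOB-like cells and 50.2% ± 10.4 of osteocyte-like cells, and in 1.31% ± 0.362 of erythroid-like cells. Without thinning the shares were 98.2%, 92.2%, 84.7% and 12.8%, at median depths of 3860 to 8488 UMIs in Lepr+ OP-like and 18108 to 36953 in erythroid-like cells. Over the 9 types the genes whose control levels followed Wif1 most closely included Dip2b (Pearson r = 0.972) and Cfl1 (0.972), among 7761 genes and on log2(CPM + 1).

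**Figure D2:**
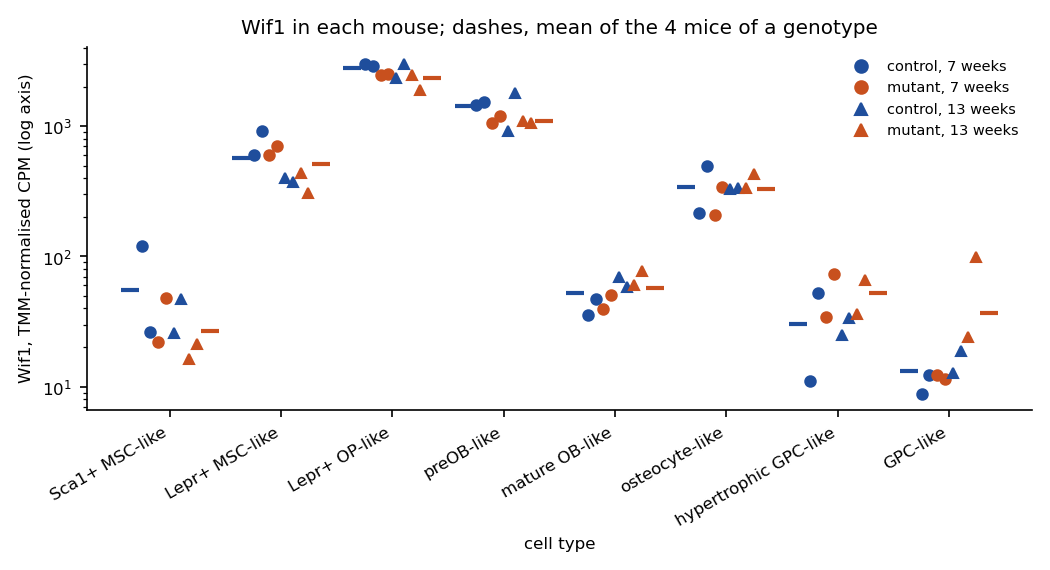
Wif1 in each of the 8 mice (points, log axis in CPM) in 8 cell types, with dashes at the mean of the 4 mice of a genotype. The level is highest in Lepr+ OP-like cells (1890 to 3039 CPM), drops to 35.4 to 77.7 CPM in mature OB-like cells and is higher again in osteocyte-like cells (208 to 499 CPM).

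In Lepr+ OP-like cells Wif1 stood at 3039 and 2932 CPM in the 7-week controls and 2477 and 2535 in the 7-week mutants. At 13 weeks it stood at 2359 and 2990 CPM in controls and 2459 and 1890 in mutants. Mutant values were lower in 3 of 4 comparisons within an age and replicate number, but the genotypes overlapped. The fitted difference was -0.28 ± 0.17 (log2, SE), with an interval of 2 SE on either side from -0.61 to 0.06 and an edgeR adjusted p of 0.748. With age, Wif1 in Lepr+ MSC-like cells was 597, 914, 597 and 710 CPM at 7 weeks and 402, 371, 442 and 308 at 13 weeks. Every 13-week mouse was below every 7-week mouse (705 ± 149 against 380 ± 56.4 CPM), yet the difference of -0.89 ± 0.18 missed the threshold in the edgeR test (adjusted p = 0.0687), while it was called with DESeq2 (0.000803) and without 7-week control 1 (edgeR, 0.0303). This Wif1 difference was called in 4 of 16 other settings. The Lepr+ OP marker list, of the cells richest in Wif1, also summed lower in Lepr+ MSC-like cells at 13 weeks, 5467 to 7079 against 6871 to 9330 CPM, with 1 of 10 genes called (Gas1), and its part in the Wif1 difference was not tested. Mature OB-like cells went the other way, from 43.2 ± 7.01 to 66.5 ± 8.96 CPM, again without overlap and short of the threshold (0.62 ± 0.14, edgeR adjusted p = 0.0577). It was called there with DESeq2 (adjusted p = 0.00175), with clusters made without integration (0.0374) and with at most 5% mitochondrial UMIs (0.0455). In all 5 of 16 other settings called it, and no setting that left out 1 mouse did. In GPC-like cells the 7 other mice held 8.80 to 23.9 CPM and 13-week mutant 2 held 98.8 CPM. The summed Lepr+ OP marker level in GPC-like cells of that mouse was 462 CPM, within the range of 447 to 579 over all mice. Its hypertrophic GPC sum was the highest, 3143 CPM beside 1269 to 2180 in the others, as was its preOB sum, 3590 beside 3017 to 3582. The part of these lists in its Wif1 level was not tested.

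Dkk1 (chr19:30545863-30549665, minus strand, GRCm38) was an osteocyte gene in these data. Controls held 99.8 ± 40.3 CPM in osteocyte-like cells and 20.9 ± 9.81 in mature OB-like cells (SD, n = 4), with no overlap between these types. Lepr+ MSC-like cells held 1.06 ± 0.609 CPM and GPC-like cells 0.334 ± 0.423, beside 0.319 ± 0.313 in erythroid-like cells. Pooled over all mice, Dkk1 was 0.634 CPM in granulocyte or monocyte-like, 0.871 in lymphoid-like and 0.952 and 1.49 in endothelial-like clusters. Whether the low levels lie above free RNA was not tested. Thinned to 2000 UMIs, 16.9% ± 5.03 of osteocyte-like cells and no erythroid-like cell had a Dkk1 UMI, and without thinning these shares were 50.1% and 0.953%. Because mature OB-like cells were the largest type, they still supplied 69.4% of all Dkk1 UMIs of the kept cells and osteocyte-like cells 21.2%. The nearest genes in pattern were Ncf1 (r = 0.965), Bmp3 (0.955) and the osteocyte gene Mepe (0.954). Mepe is among the markers that named the osteocyte-like cells. These genes were picked as the highest of 7761 over 9 types, and their likeness to Dkk1 was not tested.

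Dkk1 rose with age in mature OB-like cells. The 7-week mice held 13.6 and 11.3 CPM (controls) and 10.9 and 11.4 CPM (mutants), and the 13-week mice 29.5 and 29.2 CPM (controls) and 17.7 and 21.4 CPM (mutants). The ages did not overlap, and at 13 weeks both mutants lay below both controls. The rise was 1.02 ± 0.10 on the log2 scale, from 11.8 ± 1.21 to 24.4 ± 5.85 CPM (edgeR adjusted p = 0.00468), was 0.94 among the deeper libraries and 1.16 among the shallower ones, and stayed called without any 1 mouse (adjusted p up to 0.0207). In controls alone it was 1.24 (edgeR adjusted p = 0.0347) and in mutants alone 0.80 (adjusted p = 0.103), and the difference between these was not called. Mutants against controls gave -0.37 ± 0.10 with an edgeR adjusted p of 0.141. All 5 clusters that make up the mature OB-like cells had a higher mean at 13 weeks, from 7.09 to 17.7 CPM in the largest and from 14.0 to 24.9 CPM in the next in size. Beside it, 2 of 13 osteocyte markers tested in mature OB-like cells were called higher at 13 weeks (Mepe and Ptprz1), and the summed list ranged from 978 to 1301 CPM at 7 weeks and from 1198 to 1345 at 13 weeks. The endothelial list was lower at 13 weeks for 9 of 11 genes, with sums of 10.9 to 18.2 and 5.46 to 8.28 CPM, and the part of either list in the Dkk1 difference was not tested.

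In osteocyte-like cells Dkk1 was 45.2 and 94.1 CPM in 7-week controls, 35.0 and 88.8 in 7-week mutants, 125 and 134 in 13-week controls and 95.6 and 97.3 in 13-week mutants. The ages again did not overlap, but the 7-week values were spread by replicate number and the difference (0.79 ± 0.24) was not called (edgeR adjusted p = 0.302). Of 16 other settings 4 called it. Settings that called it included those without 7-week control 2 (0.0391) or 7-week mutant 2 (0.0385). It was 1.46 among the deeper libraries and 0.34 among the shallower ones. In preOB-like cells 13-week mice were called higher (2.20 ± 0.55, edgeR adjusted p = 0.0452), on 3.97 to 37.2 CPM against 0 to 15.6 CPM with overlapping ages. This difference was 1.12 among the deeper and 3.33 among the shallower libraries, and it was 1.37 without 13-week mutant 1. Without 7-week control 1 the remaining 7-week control had no UMI, and no fold is given. In preOB-like cells 4 of 11 tested osteocyte markers (Dmp1, Mepe, Phex and Ptprz1) were also higher at 13 weeks, with sums of 1116 to 1643 against 727 to 987 CPM. Of the Sca1+ MSC list 4 of 8 tested genes were called lower there, and of the Lepr+ MSC list 2 of 15 higher and 2 lower. The part of these lists in the Dkk1 difference was not tested. The preOB-like call ended without 13-week control 2 (adjusted p = 0.103), 7-week control 2 (0.127), 13-week mutant 1 (0.536) or 7-week mutant 2 (0.0709), with DESeq2 (0.398) and with at most 5% mitochondrial UMIs (0.663).

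In hypertrophic GPC-like cells Dkk1 was low in all controls, at 1.66, 1.14, 1.28 and 1.20 CPM, and 4.07, 16.1, 4.66 and 2.96 CPM in the mutants. All 4 mutants lay above all 4 controls, with 1 mutant far above the other mutants. The fitted difference was 2.14 ± 0.46 (edgeR adjusted p = 0.382), and it was called with DESeq2 (adjusted p = 0.0386) and without 7-week mutant 1 (edgeR adjusted p = 0.00368), while without 7-week mutant 2 it was 1.53 (edgeR adjusted p = 0.958). This Dkk1 difference was called in 4 of 16 other settings. The summed preOB marker level in these cells ranged from 6344 to 10120 CPM in controls and from 8803 to 20940 in mutants, and its part in the difference was not tested.

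Sost, which encodes sclerostin (chr11:101962458-101967015, minus strand, GRCm38), was sparse. It had 309 UMIs in all kept cells, of which 150 (48.5%) were in osteocyte-like cells, 72 in mature OB-like and 57 in hypertrophic GPC-like cells, and erythroid-like cells had none. Osteocyte-like cells of the 7-week controls held 9 and 2 UMIs (3.21 and 0.826 CPM) and those of the 7-week mutants none, in 397 cells, where 3 UMIs would be 0.494 CPM over that group. The 13-week controls held 68 and 38 UMIs (17.0 and 22.4 CPM) and the 13-week mutants 29 and 4 (11.3 and 1.55 CPM). Both 13-week controls were above every 7-week mouse, the mutants were below the controls at both ages, and 13-week mutant 2 fell among the 7-week controls. Sost was called higher at 13 weeks in osteocyte-like cells (edgeR adjusted p = 0.0148), from 1.01 ± 1.52 to 13.0 ± 8.91 CPM (SD, n = 4). The fitted fold rests on the mutants at 0 and is not given, and 29 of the 33 UMIs of the 13-week mutants came from mutant 1. In controls alone the level went from 2.02 ± 1.68 to 19.7 ± 3.86 CPM (n = 2 each, log2 difference 3.17, edgeR adjusted p = 0.202). Leaving out 13-week control 1 (adjusted p = 0.0914) or 13-week mutant 1 (0.166) ended the call over both genotypes. Mutants against controls, 3.21 ± 5.43 against 10.9 ± 10.5 CPM, missed the threshold (edgeR adjusted p = 0.106), with the mutant lower in 4 of 4 comparisons within an age and replicate number. This difference was called in 4 of 16 other settings and not with DESeq2. The difference was called without 7-week control 2 (adjusted p = 0.0483) or 13-week mutant 1 (0.0133).

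In the osteocyte-like cells 1 of 13 tested osteocyte markers was called higher at 13 weeks (Mepe), the list summed to 3817 to 5373 CPM at 7 weeks and 4131 to 5391 at 13 weeks, and its part in the Sost difference was not tested. Fgf23, a hormone of mature osteocytes, had no UMI in them. In mature OB-like cells Sost had 1, 0, 10 and 1 UMIs at 7 weeks and 9, 6, 31 and 14 at 13 weeks, in the order of 2 controls and 2 mutants. It was called higher at 13 weeks there too (3.0 ± 0.62, edgeR adjusted p = 0.0429), at 0.36 ± 0.23 CPM, and that call was kept only without 7-week mutant 1 (adjusted p = 0.0293) and lost without any other mouse (0.0674 to 0.139). Leaving out 1 mouse moved this Sost difference between 2.67 and 4.15 on the log2 scale, and 7-week control 2 had no UMI. The osteocyte markers Mepe and Ptprz1 were called higher in the same mature OB-like cells, as given for Dkk1, and their part in the Sost difference was not tested. Between genotypes the order in mature OB-like cells was opposite to that in osteocyte-like cells, with the mutant higher in 4 of 4 comparisons within an age and replicate number (0.0940 ± 0.0975 CPM in controls, 0.318 ± 0.281 in mutants), and the difference was not called (2.26 ± 0.65, edgeR adjusted p = 0.156). Whether the genotype effect differs between these types was not tested. With mature OB-like, interferon OB-like and osteocyte-like cells summed, Sost was higher at 13 than at 7 weeks by 3.20 ± 0.45 on the log2 scale (edgeR adjusted p = 0.0110). In hypertrophic GPC-like cells the UMIs were 0, 2, 1 and 6 at 7 weeks and 8, 1, 7 and 32 at 13 weeks, too few for the test.

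**Figure D3:**
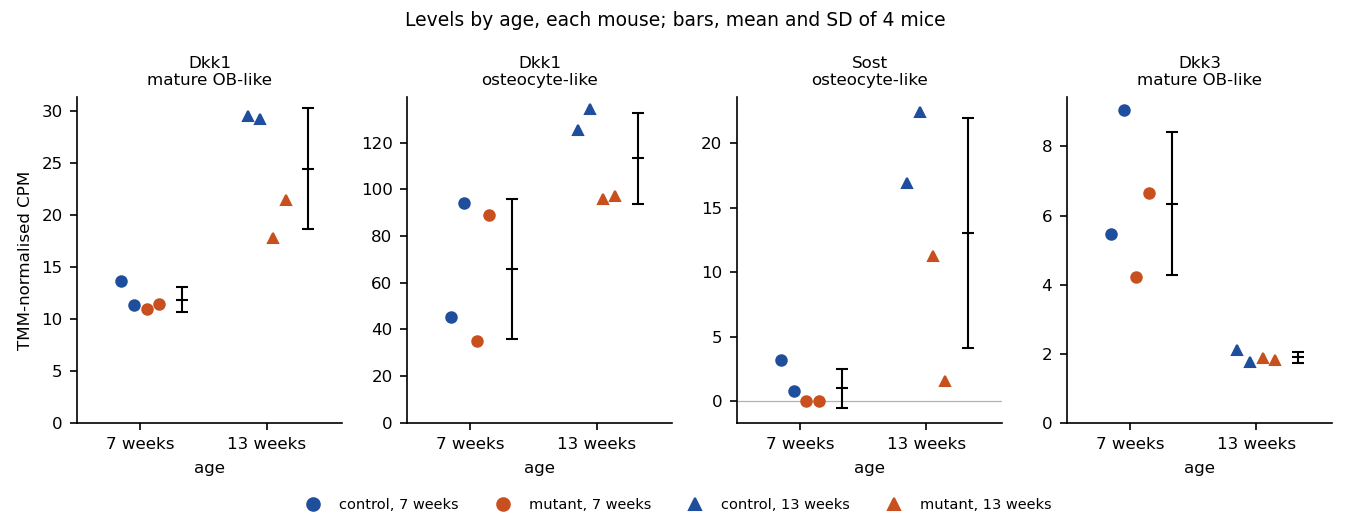
Dkk1, Sost and Dkk3 in each mouse at 7 and 13 weeks (points, CPM, blue for controls and orange for mutants), with the mean and SD of the 4 mice of an age beside them. Dkk1 in mature OB-like cells and Dkk3 in mature OB-like cells separate the ages fully and in opposite directions, while Sost in osteocyte-like cells overlaps through 1 mutant at 1.55 CPM.

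Of the members, Dkk1 and Sost were the ones called higher with age in osteoblastic cells. The bases in front of their genes are therefore shown, on the gene's strand and 5′ to 3′, from RefSeq promoter windows of 250 bases on GRCm38.p6, as far as they lie outside the annotated gene.
Dkk1 (chr19:30549666-30549746, minus strand): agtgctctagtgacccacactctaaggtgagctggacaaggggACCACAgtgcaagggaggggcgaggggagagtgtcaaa
Sost (chr11:101967016-101967265, minus strand): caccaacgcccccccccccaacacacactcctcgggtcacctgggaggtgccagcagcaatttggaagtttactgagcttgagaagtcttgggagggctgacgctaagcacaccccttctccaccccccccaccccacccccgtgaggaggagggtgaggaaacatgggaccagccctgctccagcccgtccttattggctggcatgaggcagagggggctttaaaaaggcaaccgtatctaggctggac
Capitals mark a RUNX motif (TGTGGT, here as its other strand ACCACA), the motif of the osteoblast factor family that includes Runx2. The searched motifs were CTTTGA for TCF/LEF, ATTGTT for SOX and TGTGGT for RUNX on both strands, and TATAAA on the gene's strand, and none overlapped another in the bases shown. The Sost window held none of the 4, and the full Dkk1 window also held 2 TCF/LEF motifs and 1 TATAAA within the annotated gene. Among 32851 RefSeq promoter windows of 250 bases, 14% held the RUNX motif, 13.8% the TCF/LEF motif, 9.42% the SOX motif and 7.59% TATAAA. A match is a string of letters and not a shown binding site.

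Dkk3 (chr7:112116017-112159057, minus strand, GRCm38) was highest in Sca1+ MSC-like cells, and from Lepr+ MSC-like to osteocyte-like cells it had the reverse order of Dkk1. Controls held 197 ± 45.5 CPM in Sca1+ MSC-like cells and 31.2 ± 11.2 in Lepr+ MSC-like cells, and the OP-like, preOB-like and mature OB-like stages held 22.4 ± 5.18, 12.4 ± 10.7 and 4.60 ± 3.41 CPM (SD, n = 4). The control ranges of Sca1+ and Lepr+ MSC-like cells did not overlap, the later neighbours overlapped, and chondrocyte-like cells were at 0.410 CPM or below. Axl (r = 0.989), Sgcb (0.984) and Tmem109 (0.982) followed it most closely over the 9 types.

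Dkk3 fell with age in mature OB-like cells. It was 5.46 and 9.06 CPM in 7-week controls, 4.21 and 6.66 in 7-week mutants, 2.11 and 1.77 in 13-week controls and 1.86 and 1.81 in 13-week mutants. Every 13-week mouse was below every 7-week mouse, and the 13-week mice lay close together. The change was -1.72 ± 0.21 on the log2 scale (6.35 ± 2.07 to 1.89 ± 0.155 CPM, edgeR adjusted p = 0.00711), -1.28 among the deeper and -2.14 among the shallower libraries, and remained called without any 1 mouse (adjusted p up to 0.0237). The genotypes taken alone, with 2 mice an age, gave -1.88 in controls and -1.55 in mutants and neither was called (edgeR adjusted p = 0.0848 and 0.113). The mean was lower at 13 weeks in all 5 mature OB-like clusters, from 7.52 to 1.94 CPM in the largest. The Sca1+ MSC marker list, whose cells hold the most Dkk3, summed to 70.6 to 145 CPM in mature OB-like cells at 7 weeks and 36.1 to 108 CPM at 13 weeks, with 2 of its 11 tested genes called lower (Col3a1 and Thbs2), and its part in the Dkk3 difference was not tested. In preOB-like cells Dkk3 was 16.9 ± 9.81 CPM at 7 and 6.18 ± 1.46 CPM at 13 weeks, without overlap and not called (-1.35 ± 0.41, edgeR adjusted p = 0.112). Of 16 other settings 4 called this change. Settings that called this change included those without 7-week control 1 (0.013) or 7-week mutant 1 (0.0336). The Sca1+ MSC list summed to 2017 to 2748 CPM in preOB-like cells at 7 weeks and to 454 to 1085 CPM at 13 weeks, with 4 of 8 tested genes called lower (Aspn, Col3a1, Cygb and Thbs2), and its part in the difference was not tested.

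In Sca1+ MSC-like cells Dkk3 was 240, 163, 152 and 232 CPM in controls and 317, 532, 331 and 311 CPM in mutants. All mutants were above all controls, and the 7-week mutant 2 was far above the rest. The difference of 0.91 ± 0.27 (197 ± 45.5 against 373 ± 107 CPM) was not called over the 4561 genes tested in this small type (edgeR adjusted p = 0.448), and in mature OB-like cells the genotypes differed by -0.25 ± 0.21 (edgeR adjusted p = 0.765).

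Dkk2 (chr3:132085292-132180304, plus strand, GRCm38) had 636 UMIs in the kept cells, 545 of them (85.7%) in endothelial-like cells. Outside that type it was at 0.898 ± 0.842 CPM in Lepr+ MSC-like cells of controls and without a UMI in osteocyte-like cells. Sca1+ MSC-like cells held 17 UMIs, mainly of 1 mutant at 18.0 CPM. In endothelial-like cells it was 31.7, 25.1, 9.03 and 20.5 CPM at 7 weeks and 67.7, 51.6, 38.8 and 35.9 at 13 weeks, each time 2 controls and then 2 mutants. Each 13-week mouse was above each 7-week mouse, and within each age both mutants were below both controls. It was called higher at 13 weeks (21.6 ± 9.54 to 48.5 ± 14.5 CPM, 1.22 ± 0.23, edgeR adjusted p = 0.00953, against 3.61% of all genes tested there), and the difference between genotypes was not called (-0.82 ± 0.23, edgeR adjusted p = 1.00). Leaving out 13-week mutant 1 ended the age call (adjusted p = 0.0582), and without integration the difference was 0.36 (adjusted p = 0.867). In the same cells the Sca1+ MSC list summed to 706 to 940 CPM at 7 and 1538 to 2432 CPM at 13 weeks, with 2 of 8 tested genes called higher (Ly6a and S100a4). Of the Lepr+ MSC list 2 of 15 genes were called higher and 1 lower, and of the endothelial list 2 of 11 lower (Flt4 and Stab2), and the part of these lists in the Dkk2 difference was not tested.

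Within endothelial-like cells 1 cluster of 791 cells, led by Ly6c1, Ptprb, Cldn5, Igfbp3 and Fbln2, held 473 of the Dkk2 UMIs. It made up 22.5%, 18.3%, 13.4% and 16.5% of the endothelial-like cells at 7 weeks and 47.6%, 30%, 44.4% and 34.8% at 13 weeks. Inside that cluster Dkk2 was 110 ± 41.2 CPM at 7 weeks and 125 ± 35.1 CPM at 13 weeks, and 146 ± 13.9 CPM in controls and 88.1 ± 24.8 in mutants (SD, n = 4). The share of the cluster and the level of Dkk2 over all endothelial-like cells were thus both higher at 13 weeks. At that age the shares of controls (47.6% and 30%) and mutants (44.4% and 34.8%) overlapped, while both mutants were below both controls in Dkk2. Neither the share nor the level inside the cluster was tested.

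Kremen1 (chr11:5191552-5261558, minus strand, GRCm38), the DKK1 receptor, was highest in the Sca1+ stromal cells. Controls held 47.5 ± 13.0 CPM in Sca1+ MSC-like cells, where Dkk1 had 1 UMI in all mice together, and 5.69 ± 1.46 in osteocyte-like cells. The types between overlapped their neighbours, from 21.5 ± 3.17 in Lepr+ OP-like to 7.95 ± 1.49 in mature OB-like cells, with 0.783 ± 0.694 CPM in erythroid-like cells. In preOB-like cells it was 27.5, 24.5, 27.0 and 28.0 CPM at 7 weeks and 14.7, 14.9, 17.8 and 23.8 at 13 weeks. The ages did not overlap, and the difference of -0.62 ± 0.18 was not called (edgeR adjusted p = 0.106). The Sca1+ MSC list, of the cells richest in Kremen1, was lower there at 13 weeks as given for Dkk3, and its part was not tested here either. No genotype difference of Kremen1 was called in any type, with the largest in Sca1+ MSC-like cells (47.5 ± 13.0 against 76.8 ± 22.1 CPM, 0.66 ± 0.28, edgeR adjusted p = 0.727). The levels in Sca1+ MSC-like cells rest on few counts, from 5 to 19 UMIs a control mouse and 12 to 93 a mutant mouse. Tex10, Clcn5 (both r = 0.978) and Zfyve9 (0.975) had the most similar pattern.

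Notum (chr11:120653788-120661175, minus strand, GRCm38) was a chondrocyte and osteoblast gene, at 17.7 ± 7.89 CPM in GPC-like cells, 6.36 ± 1.13 in mature OB-like cells and 1.02 ± 0.481 in hypertrophic GPC-like cells of controls. The ranges of GPC-like and mature OB-like cells did not overlap. In GPC-like cells it was 8.04, 14.7, 16.0 and 6.06 CPM at 7 weeks and 25.4, 22.7, 18.3 and 21.9 at 13 weeks. Ages did not overlap and genotypes did, and the age difference missed the threshold (0.92 ± 0.25, edgeR adjusted p = 0.0774). Of 16 other settings 4 called it. It was called with DESeq2 (adjusted p = 0.038), with clusters made without integration (0.0449) and without 7-week mutant 1 (0.0474).

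Notum was lower in mutants in mature OB-like cells, 1 of the 2 calls by genotype. Controls held 6.09 and 7.51 CPM at 7 weeks and 6.92 and 4.91 at 13 weeks, and mutants 4.29 and 4.23 at 7 weeks and 3.62 and 2.88 at 13 weeks, from 94 to 360 UMIs a mouse. Every mutant was below every control. The difference was -0.77 ± 0.15 (6.36 ± 1.13 against 3.76 ± 0.656 CPM, edgeR adjusted p = 0.0363), -0.72 among the deeper and -0.81 among the shallower libraries. Beside it, 1 of 15 preOB markers (Omd) and 1 of 11 Sca1+ MSC markers (Col3a1) were called higher in mutant mature OB-like cells, the preOB list summing to 635 to 1034 CPM in controls and 835 to 1378 in mutants, and their part in the Notum difference was not tested. All 5 mature OB-like clusters had the lower mean in mutants, from 8.43 against 4.79 CPM in the largest to 8.71 against 3.59 in the one with the widest gap. The call is near the threshold: it was kept without 13-week control 2 (adjusted p = 0.0201), lost without any of the 7 other mice (0.0529 to 0.115) and with at most 5% mitochondrial UMIs (0.065), and kept with DESeq2 (0.0028). In GPC-like cells, which hold more Notum, the genotypes differed by -0.04 ± 0.25 (edgeR adjusted p = 1.00). Whether the 2 types differ in the genotype effect was not tested.

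Ctnnbip1 (chr4:149518236-149566437, plus strand, GRCm38), the intracellular inhibitor of beta-catenin, was the most evenly spread member. Controls ranged from 95.2 ± 28.0 CPM in Lepr+ MSC-like and 92.2 ± 23.8 in Lepr+ OP-like cells through 54.9 ± 14.3 in preOB-like, 48.1 ± 9.13 in GPC-like and 42.6 ± 5.26 in hypertrophic GPC-like cells to 29.1 ± 6.49 in osteocyte-like and 21.1 ± 2.81 in mature OB-like cells. Neighbours in this order overlapped except between hypertrophic GPC-like and osteocyte-like cells. Endothelial-like cells held 96.4 ± 22.0 CPM and erythroid-like cells 6.02 ± 1.29. Tnrc18 (r = 0.996), Stam2 (0.995) and Rab14 (0.992) were nearest to it over the 9 types.

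In osteocyte-like cells Ctnnbip1 was lower in mutants, the other call by genotype. Controls held 25.6 and 36.3 CPM at 7 weeks and 21.9 and 32.4 at 13 weeks, and mutants 12.4 and 17.0 at 7 weeks and 14.4 and 20.2 at 13 weeks, from 37 to 88 UMIs a mouse. Every mutant was below every control, by a small gap between 20.2 and 21.9 CPM, and shallower libraries read higher in each group. The difference was -0.85 ± 0.20 (29.1 ± 6.49 against 16.0 ± 3.36 CPM, edgeR adjusted p = 0.0481), -0.83 among the deeper and -0.89 among the shallower libraries. The call ended without 13-week control 2 (adjusted p = 0.16), 7-week control 2 (0.111), 13-week mutant 1 (0.244), 13-week mutant 2 (0.0683) or 7-week mutant 1 (0.199), with DESeq2 (0.101) and at Leiden resolution 1.5 (0.0593). Beside it, Spp1 of the preOB list was called higher in mutant osteocyte-like cells, where the list summed to 393 to 862 CPM in controls and 587 to 1577 in mutants, and its part in the difference was not tested. From Lepr+ MSC-like cells through the OP-like and preOB-like stages to mature OB-like cells the fitted differences were, in this order, -0.43 ± 0.20, -0.41 ± 0.20, -0.36 ± 0.19 and -0.35 ± 0.12, none of them called (edgeR adjusted p = 0.291 to 0.733), with the mutant lower in 4 of 4 comparisons within an age and replicate number in each type. In both chondrocyte types they were 0.03 ± 0.14 and 0.08 ± 0.18.

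**Figure D4:**
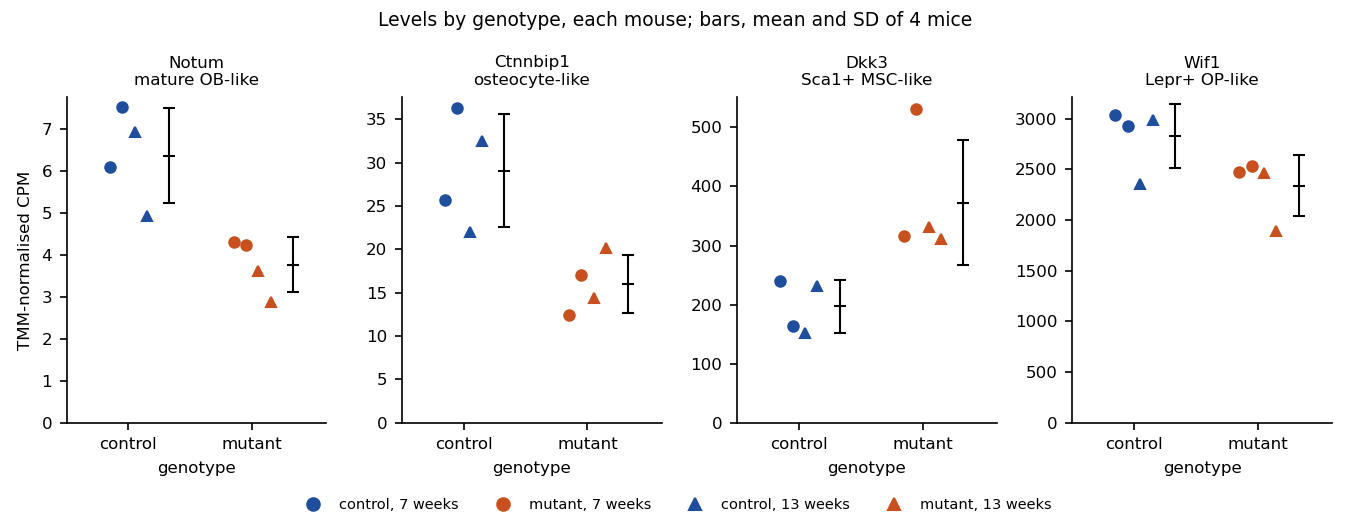
Notum, Ctnnbip1, Dkk3 and Wif1 in each control and mutant mouse (points, CPM, circles for 7 and triangles for 13 weeks), with the mean and SD of the 4 mice of a genotype. Mutants lie below controls without overlap for Notum and Ctnnbip1 and above them for Dkk3, and the genotypes overlap for Wif1.

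Sostdc1 (chr12:36314139-36318452, plus strand, GRCm38) could not be tested in any type. It had 95 UMIs in the kept cells, of which GPC-like cells held 7 and mature OB-like cells 4, and osteocyte-like cells none in 1424 cells.

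Over the 9 main types, 43 of the 81 combinations of member and type had enough UMIs for the test, between 4 and 7 members a type, and Dkk2 and Sostdc1 were tested in none. Mutants against controls over both ages gave 2 calls, both lower (Notum in mature OB-like and Ctnnbip1 in osteocyte-like cells), against 0.595% of all 91445 combinations of gene and type. The share was 1.31% of all genes tested in mature OB-like cells, where 1 of 7 members was called, and 1.58% in osteocyte-like cells, where 1 of 5 was. Their median log2 difference was -0.11, beside 0.00 over all genes, and 12 had an unadjusted p under 0.05, as had 7.36% of all combinations. At 7 weeks alone edgeR called no member, against 0.0831% of all combinations, with 9 at an unadjusted p under 0.05 (4.52% of all combinations) and 0 called with DESeq2. At 13 weeks alone it also called none, against 0.137%, with 8 at an unadjusted p under 0.05 (5.15% of all) and 0 with DESeq2. No difference of the mutant effect between ages was called for a member by either tool. With edgeR none was called for any gene (0% of all combinations). An unadjusted p under 0.05 was found for 2 combinations of member and type, beside 1.99% of all combinations.

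**Figure D5:**
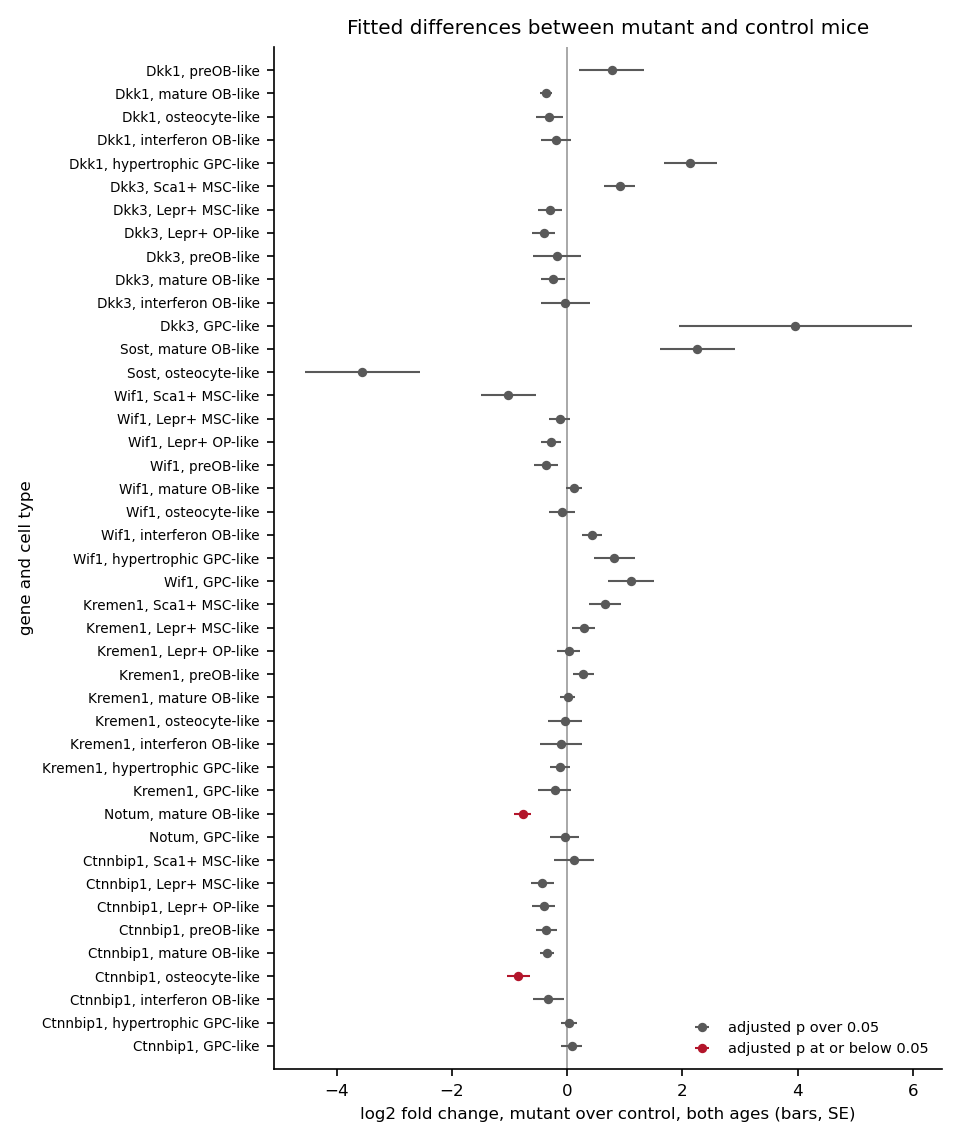
Fitted log2 fold change of mutants over controls, both ages, for the 43 tested combinations of member and cell type (points), with bars of 1 SE and calls in red. The calls are Notum in mature OB-like cells (-0.77) and Ctnnbip1 in osteocyte-like cells (-0.85), and some uncalled differences are larger but have wide bars or few UMIs.

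From 7 to 13 weeks 5 of the 43 combinations were called, 4 higher (Dkk1 in mature OB-like and preOB-like cells, Sost in osteocyte-like and mature OB-like cells) and 1 lower (Dkk3 in mature OB-like cells), against 2.11% of all combinations. The background was 1.73% in mature OB-like cells (3 of 7 members called), 0.283% in osteocyte-like cells (1 of 5) and 2.63% in preOB-like cells (1 of 5). In hypertrophic GPC-like cells 0 of 4 members were called by edgeR, beside 8.78% of all genes tested there, and in GPC-like cells 0 of 5 beside 2.14%, with 0 and 2 at an unadjusted p under 0.05, of which DESeq2 called Notum in GPC-like cells. The members' median log2 difference was -0.1, beside 0.0 over all genes, and 20 had an unadjusted p under 0.05, as had 13% of all combinations.

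The rest of the pathway was read from 5 lists of 96 genes, of which 78 could be tested in at least 1 type, in 514 combinations. In mutants against controls 3 were called higher and 10 lower, where 0.595% of all combinations of gene and type were called, with a median log2 difference of -0.02 beside 0.00 over all genes. The secreted frizzled-related proteins, decoys that bind Wnt ligands as Wif1 does, gave 6 of the 10 lower calls among 27 combinations (median -0.39). Sfrp1 was lower in Lepr+ MSC-like cells (262 to 105 CPM, -1.32 ± 0.18, edgeR adjusted p = 0.00887) and in Lepr+ OP-like cells (-0.80 ± 0.15). Sfrp2 was lower in Lepr+ OP-like (-1.52 ± 0.26), preOB-like (-2.53 ± 0.36) and mature OB-like cells (-2.18 ± 0.33), and Frzb in osteocyte-like cells (-1.19 ± 0.20). Beside these calls, Vcan of the preOB list was lower in mutant Lepr+ OP-like cells and Lpl of the Lepr+ MSC list higher in mutant preOB-like cells. In mature OB-like and osteocyte-like cells the markers given for Notum and Ctnnbip1 were higher in mutants. The part of these markers in the pathway differences was not tested. The calls of Sfrp2 in OP-like and preOB-like cells were kept without any 1 mouse and lost with at most 5% mitochondrial UMIs (adjusted p = 0.151 and 0.284), while that of Sfrp1 in Lepr+ MSC-like cells ended without 13-week mutant 2 (adjusted p = 0.0682), that of Sfrp2 in mature OB-like cells without 13-week mutant 1 (0.0732) and that of Frzb without 13-week control 1 (0.0506). Sfrp1 in Lepr+ OP-like cells was lost without 13-week control 2 (0.0815), 13-week mutant 1 (0.0575) or 7-week mutant 1 (0.0625). Wif1, with the same kind of action and the same cells, had -0.28 ± 0.17 in Lepr+ OP-like and -0.37 ± 0.21 in preOB-like cells and was not called.

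Of the receptors, the Frizzled gene Fzd3 was lower in Lepr+ OP-like (-1.24 ± 0.26), mature OB-like (-1.35 ± 0.17) and osteocyte-like cells (-1.43 ± 0.32), and no other receptor was called among 103 combinations. Among the ligands Wnt16 was higher in mature OB-like cells (1.68 ± 0.25, from 0.461 to 1.43 CPM), 1 of 62 combinations. Among beta-catenin, its partners and targets, the cell cycle gene Ccnd1 was higher in Lepr+ OP-like (0.80 ± 0.18) and mature OB-like cells (0.69 ± 0.13), and Rspo2, a secreted enhancer of Wnt signalling, was lower in Lepr+ OP-like cells (-0.99 ± 0.22), among 144 combinations. Of these calls, Fzd3 in mature OB-like cells was kept without any 1 mouse. Wnt16 was lost without 13-week control 1 (adjusted p = 0.0561), 7-week control 1 (0.0521) or 13-week mutant 1 (0.0702). Ccnd1 in mature OB-like cells was kept only without 7-week control 1, and in Lepr+ OP-like cells only without 13-week control 2 or 7-week mutant 1. Rspo2 was kept only without 13-week control 2 or 7-week mutant 2. Fzd3 in Lepr+ OP-like cells was kept only without 13-week control 2, 13-week mutant 2 or 7-week mutant 1, and in osteocyte-like cells only without 13-week control 1, 7-week control 1 or 13-week mutant 2. With DESeq2 the calls of Fzd3 in Lepr+ OP-like (adjusted p = 0.0966) and osteocyte-like cells (0.0662), of Rspo2 (0.07) and of Ccnd1 in Lepr+ OP-like cells (0.135) also ended. With at most 5% mitochondrial UMIs Rspo2 (0.328) and Ccnd1 in Lepr+ OP-like (0.567) and mature OB-like cells (0.065) were not called, nor was Ccnd1 in Lepr+ OP-like cells at Leiden resolution 1.5 (0.0829). The list of other inhibitors and feedback genes had 0 of 178 called. With age that last list had 4 higher and 10 lower calls, among them Apcdd1, Nkd1 and Nkd2, membrane and cytoplasmic inhibitors named after their values were seen, lower at 13 weeks in mature OB-like cells where Dkk1 was higher. The frizzled-related proteins had no call with age (median 0.41), and over the 5 lists age gave 16 higher and 16 lower calls among the 514 combinations, where 2.11% of all were called.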

How the data were processed

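Single-cell libraries (10x Genomics 3′ chemistry) of 8 mice were analysed. The values used are raw UMI counts per gene and cell, as deposited by the authors. Per the submitters' processing notes, Cell Ranger 6.1.2, Seurat 4.3 and mm10 were used for them. No normalisation had been applied to them. Cells with 200 to 6000 genes and at most 10% mitochondrial UMIs were kept, simulated doublets served to remove 9.67% to 11.3% of these per library, and cells were integrated with Seurat 5.3.0 (2000 variable genes, 30 components, 5 anchor neighbours) and clustered by Leiden at resolution 1 with 20 neighbours. The members and the Wnt pathway genes were kept out of the genes that built the clusters. Clusters were named from at least 3 fixed markers.

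UMI counts were added up over the cells of a type in each mouse, where at least 10 cells were present. Sums were tested with edgeR 4.0.16 (TMM factors, filterByExpr, quasi-likelihood test, means of 4 groups, 4 residual degrees of freedom) in R 4.3.3, and p-values were adjusted by Benjamini-Hochberg over all genes of a cell type, with 0.05 as the threshold. DESeq2 1.42.0 was an alternative. Standard errors are the fitted log2 difference divided by the square root of F. The tests were checked on simulated counts. Shares of cells with a UMI were computed after thinning to 2000 UMIs per cell. Promoter windows came from RefSeq tables.

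Members, cell type markers and pathway lists were chosen with earlier results of these data known. Genes named for likeness were the 3 with the highest correlation with a member over the 9 types, for members and genes that reached 20 CPM in a type of the controls, and pathway genes are those called by genotype, at most 6 per type. Some genes that these rules name are not reported here. A free RNA background was read from erythroid-like cells, the type with the most UMIs a cell, and several blood clusters with fewer UMIs read higher. Depth sets the precision: medians were 10817 to 12335 UMIs a cell in the deeper libraries and 6604 to 7897 in the others, and floors of 3 counts cover counting error only.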

Additional observations from a re-analysis of the deposited data

Results flagged for a closer look

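Of 94 groups of 4 mice examined (a member, a cell type and a genotype), 11 had 1 mouse far from the others by Dixon's criterion. Chance alone gives about 1 in 20 for 4 draws from 1 normal distribution. Each group mixed ages and depths, and some held few UMIs, so the count cannot be set against that rate. Dkk1 was 35.0 CPM in osteocyte-like cells of 7-week mutant 1, beside 88.8 to 97.3 in the other mutants, and 16.1 CPM in hypertrophic GPC-like cells of 7-week mutant 2, beside 2.96 to 4.66. The same 7-week mutant 2 stood apart for Dkk3 in Sca1+ MSC-like cells (532 CPM, others 311 to 331), for Dkk3 in preOB-like cells (21.9 CPM, others 5.95 to 8.43) and for Ctnnbip1 in Sca1+ MSC-like cells (96.2 CPM, others 51.6 to 55.3). Sost in osteocyte-like cells was 11.3 CPM in 13-week mutant 1 and 0 to 1.55 in the other mutants.

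Wif1 in Lepr+ OP-like cells was 2359 CPM in 13-week control 1, below the other controls at 2932 to 3039, and 1890 CPM in 13-week mutant 2, below the other mutants at 2459 to 2535. The latter mouse had 98.8 CPM of Wif1 in GPC-like cells, where the other mutants had 11.4 to 23.9. Ctnnbip1 in preOB-like cells was 76.2 CPM in 7-week control 2 and 45.4 to 49.8 in the other controls. Dkk3 in GPC-like cells was 0.227 CPM in 13-week control 2, which is 1 UMI, and without a UMI in the other controls, so that 1 UMI alone set this group apart. Their causes were not tested.

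Sostdc1, which had no test in the named types, had 79 of its 95 UMIs (83.2%) in an unnamed cluster of 95 cells.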

How the results depend on the processing

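For genotype over both ages and for age, 34 member results with an unadjusted p under 0.05 and 13 pathway calls were recomputed in 14 to 16 other settings each, and none turned its direction. Results within an age and for the difference between ages were recomputed only as counts of calls. Of the 34, 8 were called and 2 of these kept the call without any 1 mouse (Dkk1 and Dkk3 with age in mature OB-like cells), and of 13 pathway calls 3 did. The cause of the differences below was not tested. The share of all genes called in each setting below is not given, so changed counts cannot be read as particular to the members. With genes filtered only for 1 UMI, calls of members went from 2 to 7 for genotype over both ages (4 higher, 3 lower), from 0 to 4 at 7 weeks, from 0 to 4 at 13 weeks, from 0 to 2 for the difference of the mutant effect between ages and from 5 to 15 for age (11 higher, 4 lower), and pathway calls from 13 to 33. Leiden resolution 1.5 gave 1 member call for genotype, and at most 5% mitochondrial UMIs gave 1, with 8 pathway calls and a Wif1 level of 2163 CPM in Lepr+ OP-like cells against 2830. Leaving out 1 mouse gave 0 to 1 member calls for genotype over both ages, 0 to 1 at 7 weeks, 0 to 1 at 13 weeks, 3 to 7 for age and 5 to 12 pathway calls. Of the calls for genotype over both ages, 0 came without 13-week mutant 2, the call without 7-week mutant 1 was Dkk1, higher in hypertrophic GPC-like cells, and that without 7-week control 2 or 13-week mutant 1 was Sost, lower in osteocyte-like cells. Age in controls alone gave 2 calls and in mutants alone 0, an alternative chosen after seeing the data. Without integration no Lepr+ OP-like class was found.

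Replicate numbers are shared by the groups, but no source ties them to a litter. Of 18 correlations between deviations of same-numbered mice, 15 were over 0.1 (-0.23 to 0.41), and the first mouse of each group also had the deeper library, so the pairing was not established. A block by replicate number was tried as an alternative. For genotype it was set within each age (2 residual degrees of freedom), and for age the replicate number alone was used. Counts are combinations of member and type. The share of all genes called with the block is not given either, so these counts cannot be read as particular to the members or the pathway. For genotype over both ages 10 were called (3 higher, 7 lower), with 1 at 7 weeks and 2 at 13 weeks. For age 14 were called (9 higher, 5 lower). Of the pathway results 37 were called by genotype (12 higher, 25 lower). Among those called by genotype with the block and not without it were Ctnnbip1 (-0.34, adjusted p = 0.00968), Dkk1 (-0.38, 0.0179) and Sost (2.27, 0.0335) in mature OB-like, Sost in osteocyte-like (lower, 0.0239) and Dkk1 in hypertrophic GPC-like cells (2.04, 0.0244). With age they included Wif1 in Lepr+ MSC-like (-0.88, 0.0309) and mature OB-like cells (0.64, 0.0153), Dkk1 in osteocyte-like cells (0.88, 0.011), and Dkk3 (-1.23, 0.0344) and Kremen1 (-0.62, 0.0384) in preOB-like cells.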

Other observations

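In hypertrophic GPC-like cells 11 of 63 tested pathway genes were called between 7 and 13 weeks, 8 higher and 3 lower, against 8.78% of all genes tested there. They included the ligands Wnt10b and Wnt11, the receptor Fzd9, the transcription factor Lef1 and Tnfrsf11b, the decoy receptor for RANKL. Beside them, 4 of 15 OB markers were called lower at 13 weeks in these cells, of 14 GPC markers 1 was called higher and 3 lower, and of 11 hypertrophic GPC markers 3 were called higher and 2 lower. Of the stromal lists, 2 of 10 Lepr+ OP markers (Islr and Plxna2) and 1 of 12 Lepr+ MSC markers (Cxcl12) were called higher. Of 7 Sca1+ MSC markers 1 was called lower (Thbs2). The part of these lists in the pathway changes was not tested. In GPC-like cells Lef1, Myc, Tnfrsf11b and Tpbg were called higher, against 2.14% of all genes. There, of 11 hypertrophic GPC markers 4 were called higher and 1 lower, of 15 OB markers 2 were called lower, and 1 marker each of the preOB, GPC and Lepr+ MSC lists was called higher, and their part was not tested either. The pathway genes of both types were named after their values were seen. With edgeR no member was called with age in either chondrocyte type. Notum (11.2 ± 4.88 to 22.1 ± 2.94 CPM) and Wif1 (11.2 ± 1.66 to 38.5 ± 40.5 CPM) did not overlap between ages in GPC-like cells. The 13-week Wif1 mean includes 13-week mutant 2 at 98.8 CPM. Of all genes tested in GPC-like cells, 19.5% had an unadjusted p under 0.05 with age, and the share of all genes without overlap is not given.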
